A study of Mus musculus with 10 samples.

Results

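The adult haemoglobin genes of the mouse and the haem enzyme gene Alas2 were described in colon RNA, a tissue that makes no red cells of its own but holds blood. The set holds 5 of the 18398 genes of the deposited table: the alpha chains Hba-a1 and Hba-a2, the beta chains Hbb-bs and Hbb-bt, and Alas2, which is grouped with them but encodes an enzyme and not a globin. All 5 were found by symbol. They had been chosen after their values in these 10 libraries were known, so their difference between the diets is given as a description, with its error and without a test. RNA was sequenced from 10 colon samples of wild-type mice, 5 labelled with a normal diet and 5 with a pro-inflammatory diet. The series is titled for colitis and gut microbiota, and the labels name no agent other than the diet. Strain, age, sex, the composition of the diets, whether colitis was induced and whether the samples came from separate animals are not given in the sources used here. Part of the spread that the errors measure may therefore be technical. Values are FPKM, read fragments divided by gene length and by library size, and a library is named by its diet and the number in its title.

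Haemoglobin is a tetramer of a pair of alpha and a pair of beta chains, each holding a haem group that binds oxygen. The chains are made in red cell precursors of the bone marrow and spleen. Young red cells, the reticulocytes, still carry their mRNA into the circulation, so globin mRNA is found in whole tissue that holds blood. Alas2 makes the first committed intermediate of haem in the same precursors, whereas Alas1 does so in all other tissues. Albumin, encoded by Alb, is made by hepatocytes and is not a product of blood cells or of the colon, and it serves here as the marker of liver RNA.

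The alpha genes lie on chromosome 11 (GRCm38, GENCODE M21), Hba-a1 at chr11:32283511-32284465 and Hba-a2 at chr11:32296489-32297298, both on the plus strand. The beta genes lie on the minus strand of chromosome 7, Hbb-bs at chr7:103826534-103828096 and Hbb-bt at chr7:103812524-103813996. Alas2 lies on the plus strand at chrX:150547375-150570638 and overlaps Apex2 and Mir3620, both annotated on the opposite strand. No other annotated gene overlaps the 4 globin genes. Within each chain the copies are almost the same message, which bears on every value given per copy. Over 429 coding bases the alpha copies differ at 1 position, C381T, and over 444 coding bases the beta copies differ at 1 position, C417T, counted from the first base of the start codon with the base of Hba-a1 or Hbb-bs first. The 90 coding bases around these positions, which show how little tells the copies apart, read as follows, with the differing base in capitals.
Hba-a1: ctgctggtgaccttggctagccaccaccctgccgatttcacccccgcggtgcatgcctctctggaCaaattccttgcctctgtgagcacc
Hba-a2: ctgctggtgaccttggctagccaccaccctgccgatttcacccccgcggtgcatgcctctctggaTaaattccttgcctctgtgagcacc
Hbb-bs: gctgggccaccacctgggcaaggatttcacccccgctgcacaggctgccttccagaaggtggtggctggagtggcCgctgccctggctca
Hbb-bt: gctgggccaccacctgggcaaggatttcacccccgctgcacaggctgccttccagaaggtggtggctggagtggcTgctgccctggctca

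Of all stretches of 125 bases along each transcript, 29.7% were found only in Hba-a1, 32.6% only in Hba-a2, 39.3% only in Hbb-bs and 39.5% only in Hbb-bt, and at 150 bases these shares were 31.6%, 34.6%, 41.3% and 41.6%. A single read of the stated length from the rest of either message cannot be given to 1 copy by its own sequence. The libraries had paired reads, and the other read of a pair may still tell the copies apart. The share for pairs, which could be higher, was not computed. All such stretches of Alas2 were found in no other transcript. The sources used here do not say how the authors' counting treated reads that match both copies. The sum of the alpha copies and the sum of the beta copies are therefore given beside each copy's own value. The reference assembly carries the beta genes of C57BL/6, and other laboratory strains carry other beta alleles.

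The start regions of the alpha copies are also alike, with 247 of 247 bases upstream of the RefSeq starts identical when the copies are aligned with a shift of 3 bases. The beta copies shared 96 of 129 aligned upstream bases (74.4%). The 130 bases upstream of the RefSeq start (RefSeq, GRCm38.p6) are shown for 1 gene of each chain, since genes of both chains were high in the same libraries: Hba-a2 at chr11:32296362-32296491, plus strand, and Hbb-bs at chr7:103827929-103828058, minus strand. Capitals mark the motif TATAA of the TATA box, the motif CCAAT of the CCAAT box, the motif CACCC bound by Klf factors, and the motif GATA bound by GATA factors, each searched on both strands.
Hba-a2: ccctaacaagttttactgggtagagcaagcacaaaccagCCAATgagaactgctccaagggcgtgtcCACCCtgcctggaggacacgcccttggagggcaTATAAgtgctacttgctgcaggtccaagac
Hbb-bs: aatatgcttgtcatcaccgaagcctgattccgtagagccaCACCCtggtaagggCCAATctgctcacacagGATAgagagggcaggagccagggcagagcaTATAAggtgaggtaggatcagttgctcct

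All 4 globin genes held the TATA box motif, the CCAAT box motif and CACCC in this window, and Hbb-bs and Hbb-bt also held GATA. The window of Alas2 held 3 copies of CACCC on the opposite strand and GATA on each strand, and it held neither a TATA box motif nor a CCAAT box motif. Over 27025 RefSeq promoter windows of the same length, TATAA was found in 13.2%, CCAAT in 23.2%, CACCC in 33.2% and GATA in 32.0%. In Hba-a2 the TATAA began 30 bases before the start and in Hbb-bs 29 bases before it. These are matches of letters and not sites shown to be bound.

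Each library held 15652783 to 18341956 reads on genes, recovered from the steps of the FPKM values. Some libraries stood apart in genes of other tissues or regions. Pro-inflammatory diet libraries 2 and 5 had 3568 and 2334 FPKM of the carbonic anhydrase gene Car1, against 165 to 845 in the other 8, and 28.9 and 50.5 FPKM of the elastase gene Cela1, against 209 to 282. Normal diet library 4 held skeletal muscle mRNA, with Acta1 at 179 FPKM against 1.20 to 2.96 in the other 9. Pro-inflammatory diet libraries 1 and 3 held liver mRNA, described with albumin below.

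Globin mRNA was scarce in every library. The 4 haemoglobin genes together took 10.3 to 17.8 RPM (reads in every 1000000 reads on genes) on the normal diet and 14.5 to 51.8 on the pro-inflammatory diet. Their summed FPKM was 16.7, 19.2, 20.9, 25.1 and 29.7 in normal diet libraries 1 to 5, and 74.1, 23.3, 65.7, 26.8 and 83.2 in pro-inflammatory diet libraries 1 to 5. Libraries 1, 3 and 5 of the pro-inflammatory diet thus lay well above the others, and libraries 2 and 4 of that diet lay within the normal diet range. In whole tissue, more blood cells and more globin mRNA per cell cannot be told apart.

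Among the beta chains, Hbb-bs was the most abundant gene of the set in all libraries except normal diet library 5, where Hba-a1 was higher. It was at 11.1, 13.9, 14.2, 15.5 and 13.2 FPKM in normal diet libraries 1 to 5, and at 50.1, 16.8, 40.6, 19.3 and 56.9 FPKM in pro-inflammatory diet libraries 1 to 5. These values rest on 117 to 175 reads per library on the normal diet and 188 to 579 on the pro-inflammatory diet. The groups did not overlap, although libraries 2 and 4 of the pro-inflammatory diet stood only just above the highest normal diet library. The means were 13.6 ± 1.61 and 36.8 ± 18.1 FPKM (SD, n = 5 each), a fold of 2.71 between means, and the spread of the pro-inflammatory diet came from its 3 high and 2 low libraries.

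Hbb-bt, the second adult beta chain, was far lower. It was at 1.06, 0.810, 1.24, 2.34 and 0.966 FPKM in normal diet libraries 1 to 5, and at 4.74, 1.36, 5.53, 1.15 and 8.98 FPKM in pro-inflammatory diet libraries 1 to 5. Libraries 1, 3 and 5 of the pro-inflammatory diet were again the highest, and its libraries 2 and 4 fell among those of the normal diet. The means were 1.28 ± 0.611 and 4.35 ± 3.25 FPKM (SD, n = 5 each). Summed over both beta genes the groups did not overlap, at 12.2 to 17.9 FPKM against 18.2 to 65.9 FPKM.

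**Figure D1:**
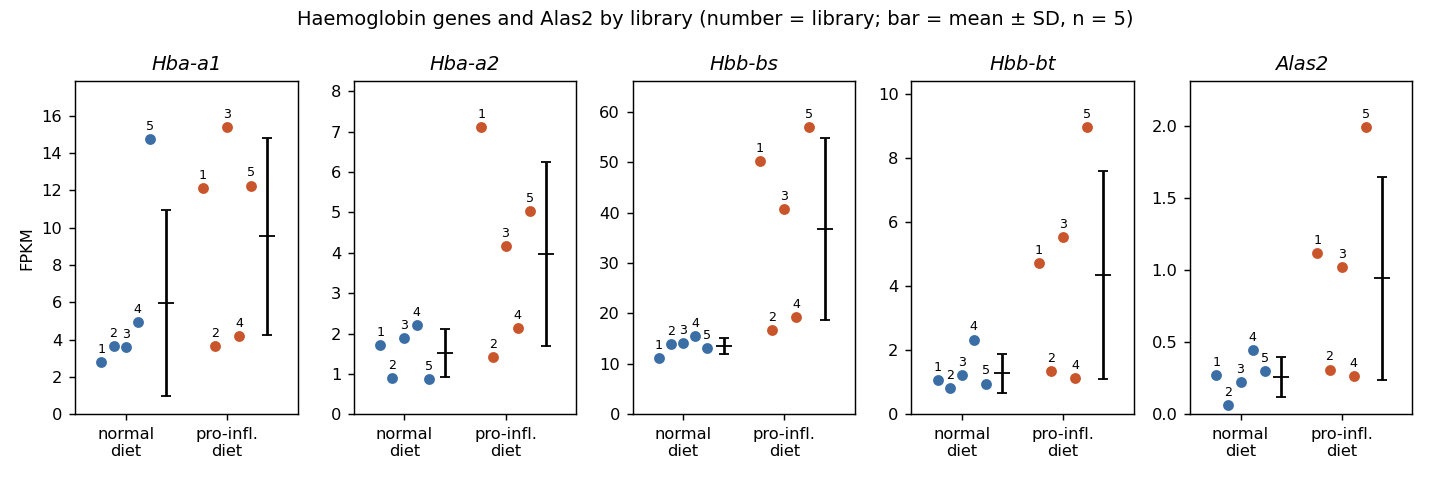
FPKM of the 5 genes by library, with 1 panel per gene and its own linear axis from 0; points are libraries with their number, and bars are the mean ± SD of 5 libraries per diet. Pro-inflammatory diet libraries 1, 3 and 5 are the 3 highest in 4 of the 5 genes, and in Hba-a1 normal diet library 5 is among the 3 highest at 14.7 FPKM.

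The alpha chains followed the same libraries with 1 exception. Hba-a1 was at 2.83, 3.65, 3.60, 4.97 and 14.7 FPKM in normal diet libraries 1 to 5, and at 12.1, 3.68, 15.4, 4.21 and 12.3 FPKM in pro-inflammatory diet libraries 1 to 5. Normal diet library 5 was second only to pro-inflammatory diet library 3, and the groups overlapped. The means were 5.96 ± 4.97 and 9.53 ± 5.27 FPKM (SD, n = 5 each). Hba-a2 was at 1.73, 0.906, 1.89, 2.22 and 0.884 FPKM in normal diet libraries 1 to 5, and at 7.11, 1.42, 4.16, 2.14 and 5.02 FPKM in pro-inflammatory diet libraries 1 to 5. In this copy normal diet library 5 was the lowest of all 10, and the 3 highest were pro-inflammatory diet libraries 1, 3 and 5. Its means were 1.52 ± 0.600 and 3.97 ± 2.28 FPKM (SD, n = 5 each).

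The excess of normal diet library 5 was confined, among the 4 globin genes, to Hba-a1. Its 149 reads of Hba-a1 compare with 26 to 49 in the other normal diet libraries, whereas its 9 reads of Hba-a2 and 152 reads of Hbb-bs were within the range of those libraries. Hba-a1 therefore took 94.3% of the alpha reads in that library (exact Clopper-Pearson 95% interval 89.5 to 97.4), against 61.9 to 80.0% in the other 9. The interval overlapped only that of normal diet library 2, at 80.0% (64.4 to 90.9). Because the copies share most of their sequence, whether this library held more alpha globin mRNA or divided its reads otherwise was not tested, but its alpha sum of 15.6 FPKM was also above the 4.55 to 7.19 FPKM of the other normal diet libraries. Intervals cover counting error only, and reads without molecular identifiers are not independent molecules.

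Between the beta copies the division was steadier. Hbb-bs took 87.1 to 94.6% of the beta reads on the normal diet and 86.5 to 94.4% on the pro-inflammatory diet. The lowest share, 86.5% in pro-inflammatory diet library 5, had an exact 95% interval of 83.7 to 89.0. It did not overlap that of library 4 of that diet (90.5 to 97.1) or normal diet library 2 (89.6 to 97.6). The ratio of the beta sum to the alpha sum was 2.68, 3.22, 2.81, 2.49 and 0.904 in normal diet libraries 1 to 5, and 2.86, 3.56, 2.36, 3.21 and 3.82 in pro-inflammatory diet libraries 1 to 5. Leaving aside normal diet library 5, the ratio stayed between 2.36 and 3.82 while the summed level ranged from 16.7 to 83.2 FPKM, so both chains were high in the same libraries.

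**Figure D2:**
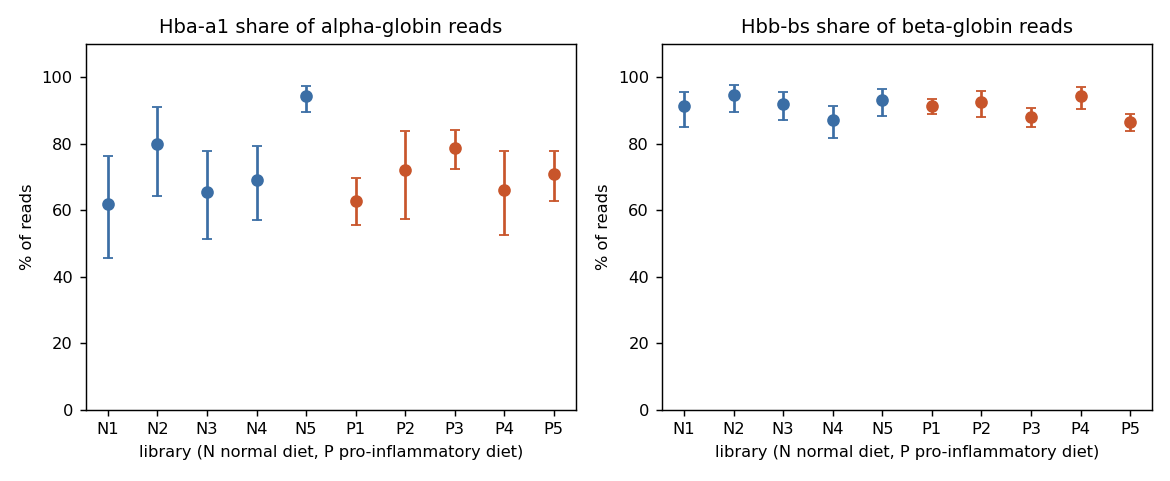
Share of alpha globin reads on Hba-a1 (left) and of beta globin reads on Hbb-bs (right) per library, in percent on a linear axis from 0; N is the normal diet, P the pro-inflammatory diet, and bars are exact 95% binomial intervals. Hba-a1 takes 94.3% in N5 against 61.9 to 80.0% elsewhere, and Hbb-bs takes 86.5 to 94.6% in all 10 libraries.

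Alas2, the red cell form of the enzyme that opens haem synthesis, was the least abundant gene of the set in every library. It was at 0.271, 0.0632, 0.222, 0.450 and 0.301 FPKM in normal diet libraries 1 to 5, from 2 to 16 reads each, and at 1.12, 0.311, 1.03, 0.269 and 1.99 FPKM in pro-inflammatory diet libraries 1 to 5, from 9 to 64 reads. The 3 highest libraries were those in which the globins were highest. Pro-inflammatory diet library 5 had 4.03 RPM (exact 95% interval 3.10 to 5.14) and normal diet library 4, the highest of its diet, had 0.909 (0.520 to 1.48). The means were 0.261 ± 0.140 and 0.943 ± 0.706 FPKM (SD, n = 5 each), and the groups overlapped. For every 100 haemoglobin reads there were 1.07 to 5.88 Alas2 reads on the normal diet and 3.27 to 7.78 on the pro-inflammatory diet, ranges that overlap. Alas1, the form used by other tissues, was at 30.6 to 44.0 FPKM on the normal and 28.4 to 53.2 FPKM on the pro-inflammatory diet, with a log2 fold change of 0.09 (SE 0.19, limma adjusted p = 0.802).

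All 5 genes had a higher mean on the pro-inflammatory diet. The contrast was fitted with limma on log2(FPKM + 1) over the 12345 genes with a mean of at least 1 FPKM, which 4 of the 5 genes reached and Alas2, at 0.602 FPKM, did not. The log2 fold change, pro-inflammatory minus normal diet, was 1.22 (SE 0.32) for Hbb-bs, 1.02 (SE 0.41) for Hbb-bt, 0.88 (SE 0.32) for Hba-a2 and 0.63 (SE 0.46) for Hba-a1. On this scale Hbb-bs ranked 37 among all tested genes. Without a filter on low values, Alas2 had a log2 fold change of 0.56 (SE 0.22). The scale understates the change of genes near 1 FPKM.

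Of the 4 tested members, 4 had a positive log2 fold change, as did 47.1% of all tested genes, and 1, Hbb-bs, had groups that did not overlap, as did 1.77% of all tested genes in that direction. No member and no other gene passed limma's Benjamini-Hochberg adjusted threshold of 0.05, so 0% of tested genes were called. Without adjustment, 1007 genes (8.16%) had p below 0.05 in the higher direction and 1142 in the lower, and limma voom on the recovered reads also called 0 genes. The median log2 fold change was -0.01 over all tested genes. As the members had been chosen on this contrast, nothing further is read from these counts.

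**Figure D3:**
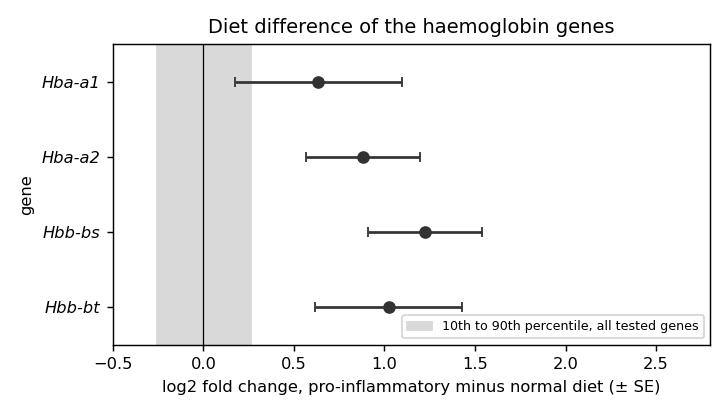
Log2 fold change (pro-inflammatory minus normal diet, log2(FPKM + 1)) of the 4 tested haemoglobin genes; points are limma estimates, bars ± 1 SE, and the grey band runs from the 10th to the 90th percentile of 12345 tested genes. Hbb-bs has the highest value at 1.22 and Hba-a1 the lowest at 0.63, both right of the band, which ends at 0.26.

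The differences leaned on few libraries. Without normal diet library 5 the log2 fold change of Hba-a1 was 0.98, and without normal diet libraries 1, 2 and 3 it was -0.060. Without pro-inflammatory diet libraries 1 and 3, Hba-a1 was at 0.20, Hba-a2 at 0.54, Hbb-bt at 0.73 and Hbb-bs at 0.93. Hbb-bs thus kept most of its difference, while that of Hba-a1 was small. What Hbb-bs kept came mostly from library 5 of that diet, at 56.9 FPKM. Libraries 2 and 4 were at 16.8 and 19.3 FPKM, against 15.5 FPKM in the highest normal diet library. For the alpha sum the log2 difference was 0.73 (SE 0.48) over all libraries and 0.28 without pro-inflammatory diet libraries 1 and 3. For the beta sum it was 1.24 (SE 0.38) and 0.94.

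Albumin mRNA separated the libraries differently from the globins. Alb (chr5:90460897-90476602) was at 2.33, 7.92, 6.48, 8.45 and 1.53 FPKM in normal diet libraries 1 to 5, and at 97.3, 0.166, 100.4, 0.703 and 0.549 FPKM in pro-inflammatory diet libraries 1 to 5. Libraries 1 and 3 of the pro-inflammatory diet were high in both albumin and globin. Library 5 of that diet had the highest Hbb-bs of all, at 56.9 FPKM, with albumin at 0.549 FPKM from 18 reads, below every normal diet library. Its globin level was therefore as large with almost no albumin mRNA as that of libraries 1 and 3 with much. The log2 fold change of Alb was 0.51 (SE 1.36, limma adjusted p = 0.858).

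The ratio of Hbb-bs to Alb FPKM put these differences in 1 number per library. It was 4.78, 1.75, 2.19, 1.84 and 8.60 in normal diet libraries 1 to 5, and 0.515, 101, 0.405, 27.4 and 104 in pro-inflammatory diet libraries 1 to 5. The lowest ratios were those of the libraries with liver mRNA and the highest those of libraries 2 and 5, and the normal diet libraries lay between. In pro-inflammatory diet libraries 2 and 5 the ratio divides by only 6 and 18 Alb reads. Their Hbb-bs was unlike, at 16.8 and 56.9 FPKM. No constant proportion of globin to albumin ran through the 10 libraries.

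**Figure D4:**
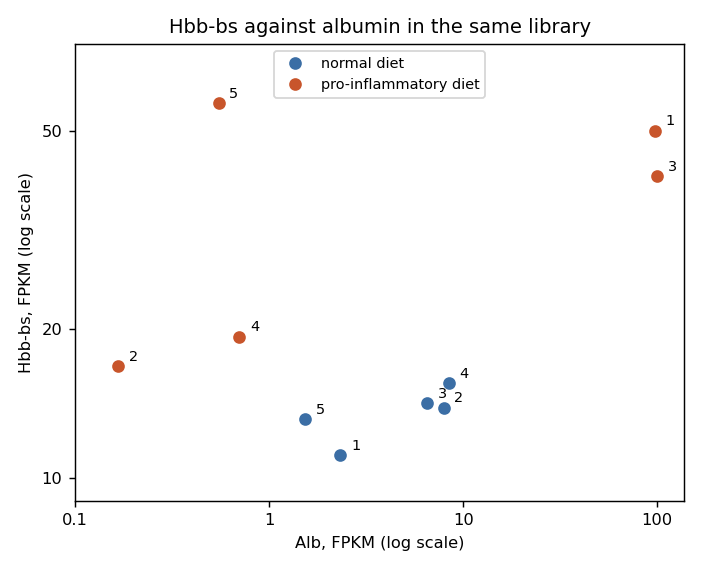
Hbb-bs FPKM against Alb FPKM per library, both on log axes; colours give the diet and numbers the library. Pro-inflammatory diet libraries 1 and 3 lie at 97.3 and 100.4 FPKM of Alb, and library 5 reaches the highest Hbb-bs, 56.9 FPKM, at 0.549 FPKM of Alb.

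Nearly all other liver and plasma protein genes were highest in the same libraries as albumin. Pro-inflammatory diet libraries 1 and 3 were the highest 2 in 24 of 25 genes of the list, and pro-inflammatory diet library 5 was below the normal diet median in 24 of 25. In that first count the exception was Apoa1, an apolipoprotein made by liver and small intestine, which was highest in normal diet library 4 at 79.0 FPKM. The summed FPKM of the list was 59.4 to 166 on the normal diet, and 517, 35.8, 497, 71.9 and 26.9 in pro-inflammatory diet libraries 1 to 5. Single genes weighed on these sums, and Ttr, the transthyretin gene, did not follow albumin throughout. It was at 26.2 to 38.6 FPKM on the normal diet, and in pro-inflammatory diet library 4, where albumin was low, at 32.8 FPKM. In libraries 2 and 5 of that diet Ttr was at 0.910 and 2.57 FPKM, so their low sums partly reflect this gene. Of the 21 tested genes 20 had a positive log2 fold change (median 0.84), and 0 passed in either direction. Mup3, a major urinary protein chosen for mention after its values were seen, was at 51.5 and 40.7 FPKM in libraries 1 and 3 and listed at 0 in libraries 2, 4 and 5 of that diet. The part of liver mRNA in the globin level of libraries 1 and 3 was not tested.

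Genes of the vessel wall did not separate the libraries with high globin. The 16 endothelial genes summed to 118 to 139 FPKM on the normal diet and 122 to 160 FPKM on the pro-inflammatory diet, with the highest sum in library 1 of the latter. Pecam1, an adhesion molecule of endothelium, was at 17.4 to 23.7 FPKM on the normal diet and at 28.0, 16.1, 19.8, 20.3 and 16.2 FPKM in pro-inflammatory diet libraries 1 to 5. Of the endothelial genes 9 of 16 tested had a positive log2 fold change (median 0.03) and 0 passed. The 12 platelet genes, whose products circulate with red cells, summed to 13.7 to 22.2 FPKM against 8.45 to 21.8 FPKM, and 6 of them had at most 3 reads in every library. In pro-inflammatory diet library 5, where Hbb-bs was highest, Pf4, a platelet chemokine, was at its lowest of the 10 libraries, 2.46 FPKM. Gp1bb, a subunit of a platelet adhesion receptor, was at its highest there, 1.99 FPKM, with 1.86 FPKM in library 2 and 0.153 to 0.897 FPKM in the other 8.

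**Figure D5:**
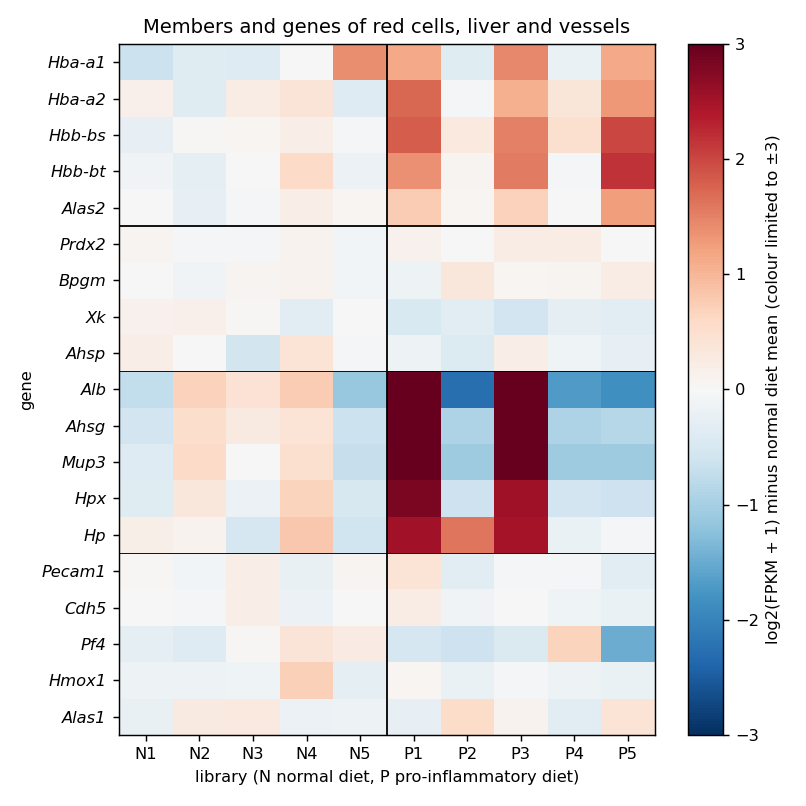
Difference of log2(FPKM + 1) from the normal diet mean per gene (rows) and library (columns, N normal diet, P pro-inflammatory diet), with colour limited to ± 3; rows are the 5 genes, then red cell genes, liver and haem binding proteins, and vessel, platelet and haem genes, shown as examples. The 5 top rows are high in P1, P3 and P5, while Alb is high in P1 and P3 (97.3 and 100.4 FPKM) and low in P5 (0.549 FPKM).

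Other genes of red cells were mostly scarce, and none had the same highest 3 libraries as Hbb-bs. Of 26 genes of the red cell membrane and of red cell maturation, 24 had a value. Of these, 9 reached 1 FPKM on average and 5 had at most 3 reads in every library. In none of the 24 were pro-inflammatory diet libraries 1, 3 and 5 the highest 3. The share of all genes with that order was not computed, and Hba-a1 did not have it either, so nothing further is read from this count. Slc4a1, the anion exchanger of the red cell membrane, had 0 to 1 read per library on the normal diet and 0 to 3 reads on the pro-inflammatory diet. Ahsp, the chaperone of free alpha chains, had 1 to 10 reads on the normal diet and 2 to 8 reads on the other. In pro-inflammatory diet libraries 1, 3 and 5 it had 4, 8 and 3 reads. Whether genes with so few reads differed by the amount seen in Hbb-bs was not tested.

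Among the 9 tested red cell genes, 4 had a positive log2 fold change (median -0.12) and 0 passed in either direction. The abundant ones, the peroxidase Prdx2 at 94.6 to 117 FPKM and the ubiquitin ligase Mkrn1 at 50.5 to 67.2 FPKM, are also expressed by other cells. Xk, which encodes a membrane protein of red cells and other tissues, had the lowest log2 fold change of the list, -0.40 (SE 0.10, limma adjusted p = 0.166).

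Regulators of red cell formation ranged from nearly undetected to moderate levels. Gata1 had 0 to 1 read per library and Klf1, the activator of the beta globin genes, 0 to 4 reads. Tal1, a transcription factor of blood and vessel lineages, had 21 to 51 reads and Gfi1b, a repressor of red cell and platelet precursors, 3 to 10 reads. Epor, the erythropoietin receptor, had 1 to 11 reads and was highest in pro-inflammatory diet library 5. The 3 regulators that reached 1 FPKM, Lmo2, Bcl11a and Zfpm1, are also used by other cell types and had log2 fold changes of -0.09, 0.13 and -0.09, with 0 passing.

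Globin genes outside the set varied in level. Of 12 listed, 5 had a value, and the beta genes Hbb-b1 and Hbb-b2 were among those without. The theta-like Hbq1a had a value in 1 library only, 0.189 FPKM in pro-inflammatory diet library 2, which does not fix its read number. Cygb, cytoglobin of fibroblast-like cells, was at 6.69 to 16.9 FPKM and Ngb, neuroglobin, at 1.54 to 3.92 FPKM, with log2 fold changes of 0.27 (SE 0.21) and -0.39 (SE 0.15) and limma adjusted p of 0.493 and 0.224. Mb, the muscle oxygen store myoglobin, was at 51.7 FPKM in normal diet library 4 and at no more than 0.360 FPKM in the other 9. That library's haemoglobin sum of 25.1 FPKM was the second highest of its diet.

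The remaining enzymes and transporters of haem synthesis were expressed in all libraries without a common direction. Of 13 measured and tested, 6 had a positive log2 fold change (median -0.02) and 0 passed in either direction. Without adjustment, p was below 0.05 for 3 of the 13 in the higher and 1 in the lower direction, against 8.16% of all tested genes in the higher direction and 1142 of 12345 in the lower. Tmem14c, a mitochondrial carrier protein for a haem precursor, was at 53.5 to 58.2 FPKM on the normal and 59.7 to 71.2 FPKM on the pro-inflammatory diet (log2 fold change 0.26, SE 0.06, limma adjusted p = 0.154). Fech, ferrochelatase, which inserts iron into protoporphyrin to make haem, had 0.04 (SE 0.06). In none of the 13 were pro-inflammatory diet libraries 1, 3 and 5 the highest 3, a count for which the share of all genes was not computed.

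Genes that handle released haem and iron were measured in 19 cases and tested in 17, of which 13 had a positive log2 fold change (median 0.09) and 0 passed. Ftl1, the ferritin light chain, was at 720 to 811 FPKM on the normal and 793 to 941 FPKM on the pro-inflammatory diet (log2 fold change 0.23, SE 0.07, limma adjusted p = 0.180). Slc40a1, the iron exporter ferroportin, was at 45.4 to 98.7 and 64.5 to 109 FPKM. The haemoglobin binding protein Hp and the haem binding protein Hpx, named after their values were seen, are secreted by the liver and were highest in pro-inflammatory diet libraries 1 and 3, Hp at 9.02 and 8.90 FPKM and Hpx at 9.91 and 7.95 FPKM. In library 5 of that diet, with the most globin, Hp was at 0.701 FPKM and Hpx was listed at 0. Hmox1, the haem oxygenase that degrades haem, also named after its values were seen, was at 2.98 to 3.56 FPKM in 8 libraries, at 4.01 in pro-inflammatory diet library 1 and at 6.80 FPKM in normal diet library 4.

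The genes most like the haemoglobin profile, by Pearson's r of log2(FPKM + 1) over the 10 libraries with the mean of the 4 genes, were not red cell genes. Sardh, a mitochondrial sarcosine dehydrogenase, had the highest r at 0.914, followed by Ndufa9, Sdha, Sdf4, Mrpl2, Ddx52, Anks4b, Tmem243, Naa38 and Uqcrc2 at 0.890 to 0.847. All 10 had pro-inflammatory diet libraries 1, 3 and 5 as their highest 3, as did the profile they were picked by. That trait follows from the picking and is no separate result. Their own range was narrow: Sardh ran from 1.50 to 3.31 FPKM and Ndufa9 from 91.3 to 118 FPKM. Without pro-inflammatory diet libraries 5 and 1, the 2 farthest from the median of the profile, r was 0.801 for Sardh and 0.835 for Ndufa9, and 0.625 to 0.891 over the 10 genes. Closest to Alas2 were Ddx28, Tst, Anks4b, Camk2n2 and Tmem243, at r of 0.911 to 0.857. These were picked as the highest among all tested genes, and the points share libraries.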

How the data were processed

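Colon RNA of 10 samples, grouped by the treatment label, was analysed from the deposited table of FPKM values, 1 per gene symbol and sample, as the authors made it. Libraries came from a stranded mRNA kit with paired reads, per the labels' protocols. Trimmomatic, HISAT2, Bowtie2, HTSeq, Cufflinks, StringTie, DESeq and mm10 are named without roles, per the submitters' processing notes; strand use and reads matching several genes are not given in the sources used here. FPKM was a whole multiple of 1 read, within 0.001 read, for 18398 of 18398 genes, and these multiples were taken as read numbers. For a gene with a value in only 1 library this match holds for any value and is no check. Such read numbers can be too low: in normal diet library 4, Pvalb at 5.65 FPKM was given 1 read and Hba-a2 at 2.22 FPKM 22 reads. Counts of genes with at most 3 reads share this limit. The closest 2 libraries differed by a chi-square of 11.51 per gene, so none was treated as a copy.

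All 10 libraries entered limma 3.58.1 (R 4.3.3; eBayes with mean trend) on log2(FPKM + 1) for genes with mean FPKM of at least 1, with Benjamini-Hochberg adjustment at 0.05. The members and lists were chosen with earlier results of these data known, and the skeletal muscle list after its values were seen. From the lists of red cells, regulators, other globins and haem synthesis any gene could be named, from other lists the 4 most abundant, plus the 10 genes most like the haemoglobin profile and the 5 most like Alas2; exceptions are marked. Sequences were compared on GENCODE M21 transcripts within RefSeq bounds, since the deposited length ratio of Alas2 to Hba-a2 (3.584) was close to that model (3.592). Alternatives changed the pseudocount, filter, scaling, variance trend, replicate block and libraries, or used limma voom on the reads. The scripts were tested on simulated data. Exact intervals used scipy 1.17.1, and figures matplotlib 3.10.9. Some genes of the lists are not reported here.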

Additional observations from a re-analysis of the deposited data

Results flagged for a closer look

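In 28 groups of 5 libraries, 5 held a library whose gap to its nearest neighbour exceeded 0.710 of the group's range. Chance flags about 1 in 20 groups only where groups are independent and their values normally distributed. Some groups here share reads, as Hba-a1 and the alpha sum do, so 5 of 28 cannot be compared with that rate. Hba-a1 was at 14.7 FPKM in normal diet library 5, with the next highest at 4.97 FPKM, and the alpha sum of that library was 15.6 FPKM against a next value of 7.19 FPKM. Hbb-bt was at 2.34 FPKM in normal diet library 4, with the next at 1.24 FPKM, which rests on 26 and 14 reads. Mb was at 51.7 FPKM in normal diet library 4, where the next was 0.101 FPKM, and the skeletal muscle genes of that library were high with it (Tnnt3 at 105 FPKM against 0.108 to 0.465 FPKM in the other 9). Mb was also at 0.360 FPKM in pro-inflammatory diet library 2, from 7 reads, against 0.0565 FPKM in the next.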

How the results depend on the processing

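The 4 tested haemoglobin genes kept a positive log2 fold change under both other pseudocounts, no filter, the other scaling, no variance trend, the replicate block, voom and each library left out in turn. With 1 library left out, Hbb-bs ranged from 1.03 to 1.46, Hbb-bt from 0.74 to 1.29, Hba-a2 from 0.67 to 1.11, Hba-a1 from 0.43 to 0.98, the beta sum from 1.03 to 1.49 and the alpha sum from 0.56 to 1.01. The 1 value that turned was Hba-a1, at -0.060 (SE 0.61) without normal diet libraries 1, 2 and 3, which earlier results of these data set apart in clock genes; this leaves 2 normal diet libraries, of which library 5 holds the high Hba-a1. With a filter at a mean of 5 FPKM, 2 members were higher in place of 4, because only Hba-a1 and Hbb-bs reach it. The replicate numbers did not pair the libraries (correlations of same-numbered deviations -0.263 to 0.061, none best with its own number); with the replicate block 0 genes were called, and the alpha and beta sums differed by 0.73 (SE 0.43) and 1.24 (SE 0.43). No setting called a gene. Depth limits Alas2, Slc4a1, Gata1 and Klf1, which had 0 to 64 reads per library, and the near identity of the copies limits each copy's own value. With voom, Hba-a2 was at 1.22 and Hbb-bt at 1.41.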

Other observations

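Fat and epithelial genes varied between libraries in patterns other than that of the globins. Fabp4, a fatty acid binding protein of adipocytes, was at 24.3 to 49.9 FPKM on the normal diet and at 89.4, 127, 28.8, 31.5 and 83.7 FPKM in pro-inflammatory diet libraries 1 to 5, so that libraries 1, 2 and 5 were high and library 3, which was high in globin, was not. Adipoq, which encodes adiponectin, was at 0 to 6.12 FPKM on the normal diet and at 11.1, 20.5, 0.574, 0.490 and 9.85 FPKM on the other. All 7 tested adipocyte genes had a positive log2 fold change (median 0.80), and 0 passed. Krt20, a keratin of the surface epithelium, was at 196 to 278 FPKM on the normal diet and at 644 and 680 FPKM in pro-inflammatory diet libraries 2 and 5, which held the lowest and the highest globin of that diet.

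Lyve1, a receptor of lymphatic endothelium, was at 20.8 to 22.4 FPKM on the normal diet and 13.1 to 19.3 FPKM on the pro-inflammatory diet, with no overlap (log2 fold change -0.41, SE 0.10, limma adjusted p = 0.166). The share of all tested genes without overlap in the lower direction was not computed. Of the 3 tested lymphatic genes 1, Pdpn, had a positive log2 fold change, 0.12, and 0 passed. The neutrophil genes S100a8 and Retnlg were at 0 to 3.33 FPKM and 0 to 1.65 FPKM. S100a8 was highest in normal diet library 4. Retnlg was highest in pro-inflammatory diet library 5, which had the most globin, from 16 reads. It was next highest, at 1.22 FPKM, in library 2 of that diet, which had the least globin of that diet. In the high-globin libraries 1 and 3 of that diet Retnlg was at 0.371 and 0.269 FPKM. Ly6g, a neutrophil surface gene, was instead at 70.3 to 204 FPKM on the normal diet and at 151, 1.47, 176, 209 and 8.26 FPKM in pro-inflammatory diet libraries 1 to 5, low in the libraries that had low Cela1. S100a8 and Retnlg did not reach such levels, and whether Ly6g reads out neutrophils in these libraries was not tested.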
